A study of Mus musculus with 6 samples.

Results

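The autophagy machinery was followed in the immature mouse dendritic line DC2.4, whose cells either carried the empty pTT5 vector or were labelled as overexpressing Vdbp. Its members were the protein-coding rows of the deposited count table whose symbol begins with Atg and a digit, together with 19 named genes of the ATG8 family, the initiation and lipid kinase complexes and the cargo receptors. This gave 38 genes of the 54532 in the table, and 37 of them had enough counts to be tested. Messenger RNA was sequenced from 3 empty-vector libraries and 3 libraries labelled Vdbp. Both groups were transfected, passaged after 48 h and then placed in selective medium, and no label ties the 3 libraries of either group to independent transfections. The p-values therefore measure only the spread between these libraries, which may be technical.

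Autophagy encloses part of the cytoplasm in a new double membrane, the autophagosome, and delivers it to the lysosome. A kinase complex built around ULK1 starts the process, a lipid kinase complex with PIK3C3 and Beclin 1 marks the membrane, and ATG9 and ATG2 proteins supply it with lipid. A pair of ubiquitin-like conjugation systems then fix ATG8 proteins (the LC3 and GABARAP families) to the membrane, where cargo receptors such as SQSTM1 bind them. In dendritic cells the pathway is known for handling intracellular antigen and for lowering inflammatory signalling, and much of its control acts on proteins and their turnover, which RNA levels do not show. The labels also call the cells bone marrow derived dendritic cells.

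Vdbp is the vitamin D-binding protein, encoded by Gc in the mouse. Gc had 0 counts in all 6 libraries, which at these depths (15563800 to 16710975 counts) allows up to 0.180 to 0.193 CPM, so the groups are named by their labels. All 10 myeloid and macrophage markers were above 1 CPM. Of 9 markers of conventional dendritic cells only Cd74, Itgax and Zbtb46 were, and H2-Aa, H2-Ab1 and Ciita stayed at or below 0.0840 CPM on average. Markers of 3 other cell types were low. Their summed level was at most 0.121 CPM for T cells, 0.299 CPM for epithelium and 2.25 CPM for fibroblasts. Cd3e, Krt8 and Col1a2 were at 0 counts throughout, while the fibroblast marker Dcn averaged 1.30 CPM (13 to 31 counts per library). Empty-vector replicate 2 and Vdbp replicate 1 lay at the opposite ends of the first principal component (the end libraries). For members whose groups did not overlap, log2 fold changes that move by over 1.5 times without both are also given without them.

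DC2.4 cells transcribed every part of the pathway, with the cargo receptor Sqstm1 and the ATG8 gene Gabarap far above the rest. Levels between genes were compared as FPKM, which divides counts by the gene length of the table. Over the 6 libraries Sqstm1 averaged 162 FPKM (rank 290 of the 12844 tested genes) and Gabarap 130 FPKM (129.6, rank 364). Atg13, a scaffold of the ULK1 complex, followed with 38.0 FPKM on this length, and the lowest tested member was Wipi1, a reader of membrane phosphoinositides, with 1.16 FPKM. The median member stood at 8.38 FPKM against 6.48 FPKM for all tested genes. The remaining member, Atg4a-ps, is listed as protein-coding with a name that marks a pseudogene copy of Atg4a, and had 1 to 3 counts per library.

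**Figure D1:**
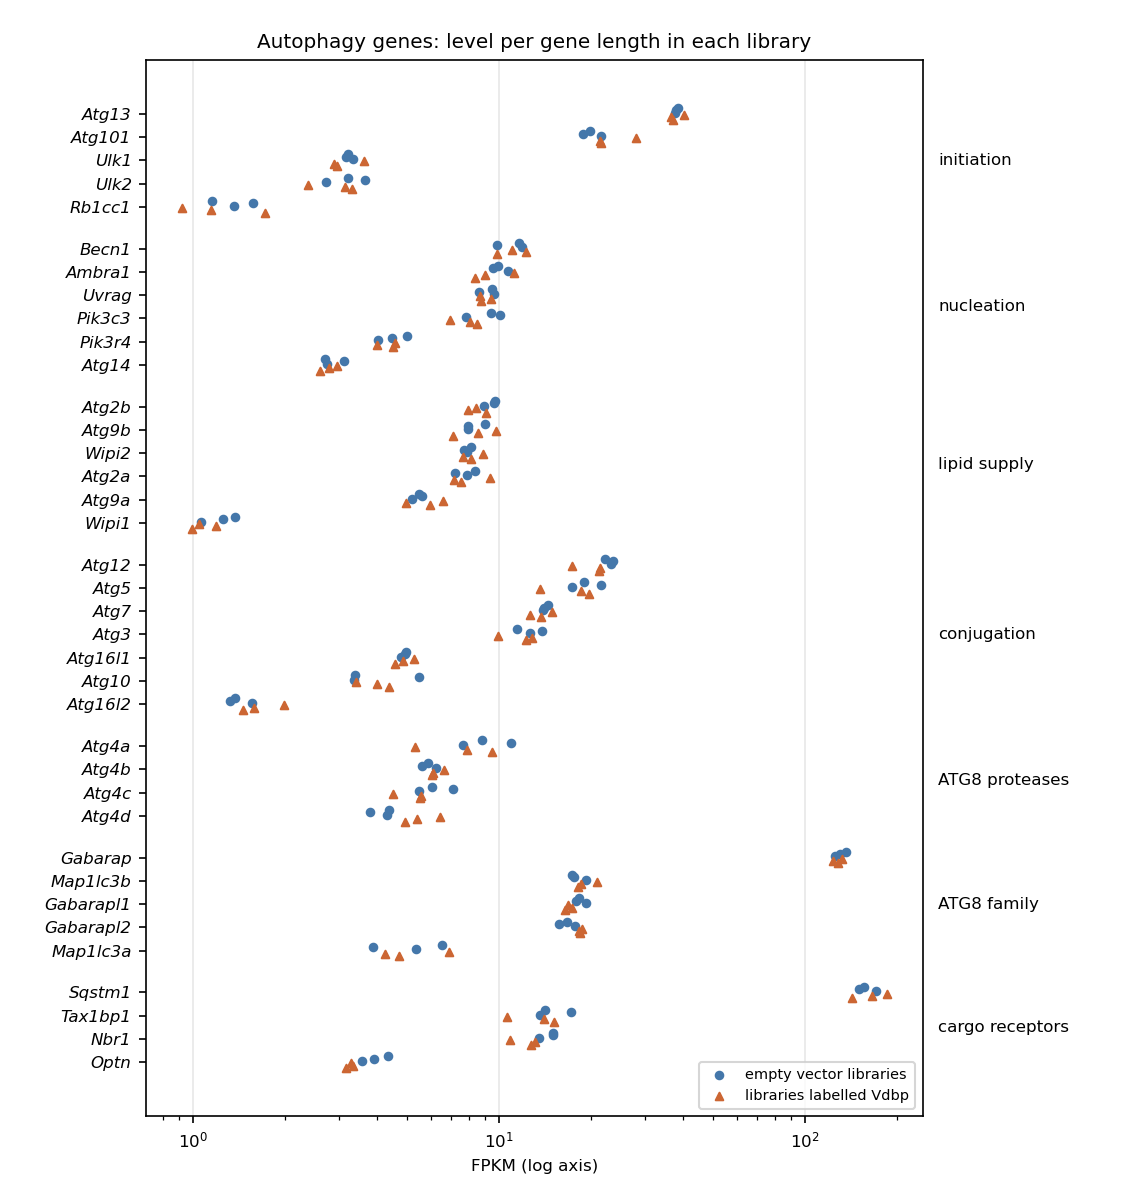
Level of the 37 tested members in each library as FPKM (horizontal log axis), grouped by role and ordered by level within a role. Circles are the 3 empty-vector libraries and triangles the 3 libraries labelled Vdbp; Sqstm1 and Gabarap stand above 100 FPKM in all 6 libraries.

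No member passed the comparison of the groups. edgeR's quasi-likelihood test called 0 of 37 members at a Benjamini-Hochberg adjusted p under 0.05, and 0% of all tested genes, and the adjusted p of members ran from 0.781 to 0.996. At an unadjusted p under 0.05 there were 2 members, Atg4d (higher with the Vdbp label, as did 2.81% of all tested genes) and Nbr1 (lower, as did 2.54%), beside 5.35% in both directions. The difference of Atg4d was known from earlier results of these data. DESeq2 called 0 members (0.0166% of all genes it fitted), and its 2 members at an unadjusted p under 0.05 (2.59% of all genes) were the same genes, as were those of limma-voom, which also called 0. The libraries of the groups did not overlap for 6 members, beside 10.9% of all tested genes. Of these 6, 2 were higher (5.26% of all tested genes) and 4 lower (5.61%). Of the members, 24 had a log2 fold change below 0, beside 51.3% of all tested genes, and 13 above it. The median was −0.04 against −0.01 for all tested genes. With 1 library left out, the number of members below 0 ran from 19 (without Vdbp replicate 2 or 3) to 27 (without Vdbp replicate 1). Fewer cells in a state and less RNA per cell cannot be told apart in such bulk libraries.

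Like the p-values, the intervals rest only on the spread between these libraries, and each holds for 1 gene alone. The 95% intervals of the fold changes stayed inside 2-fold for all 37 tested members (89.3% of all tested genes) and within 1.5-fold for 34 of them (70.7% of all tested genes). The exceptions to the narrower bound were Atg4a, Atg4d and Wipi1. The median SE of a member's log2 fold change was 0.13. With libraries left out, the count of members at an unadjusted p under 0.05 was 1 without empty-vector replicate 1 (2.92% of all genes), 1 without replicate 2 (1.97%) and 5 without replicate 3 (8.85%). It was 2 without Vdbp replicate 1 (3.63%), 2 without replicate 2 (4.39%), 4 without replicate 3 (11.7%) and 2 without both libraries at the ends of the first component (3.88%).

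**Figure D2:**
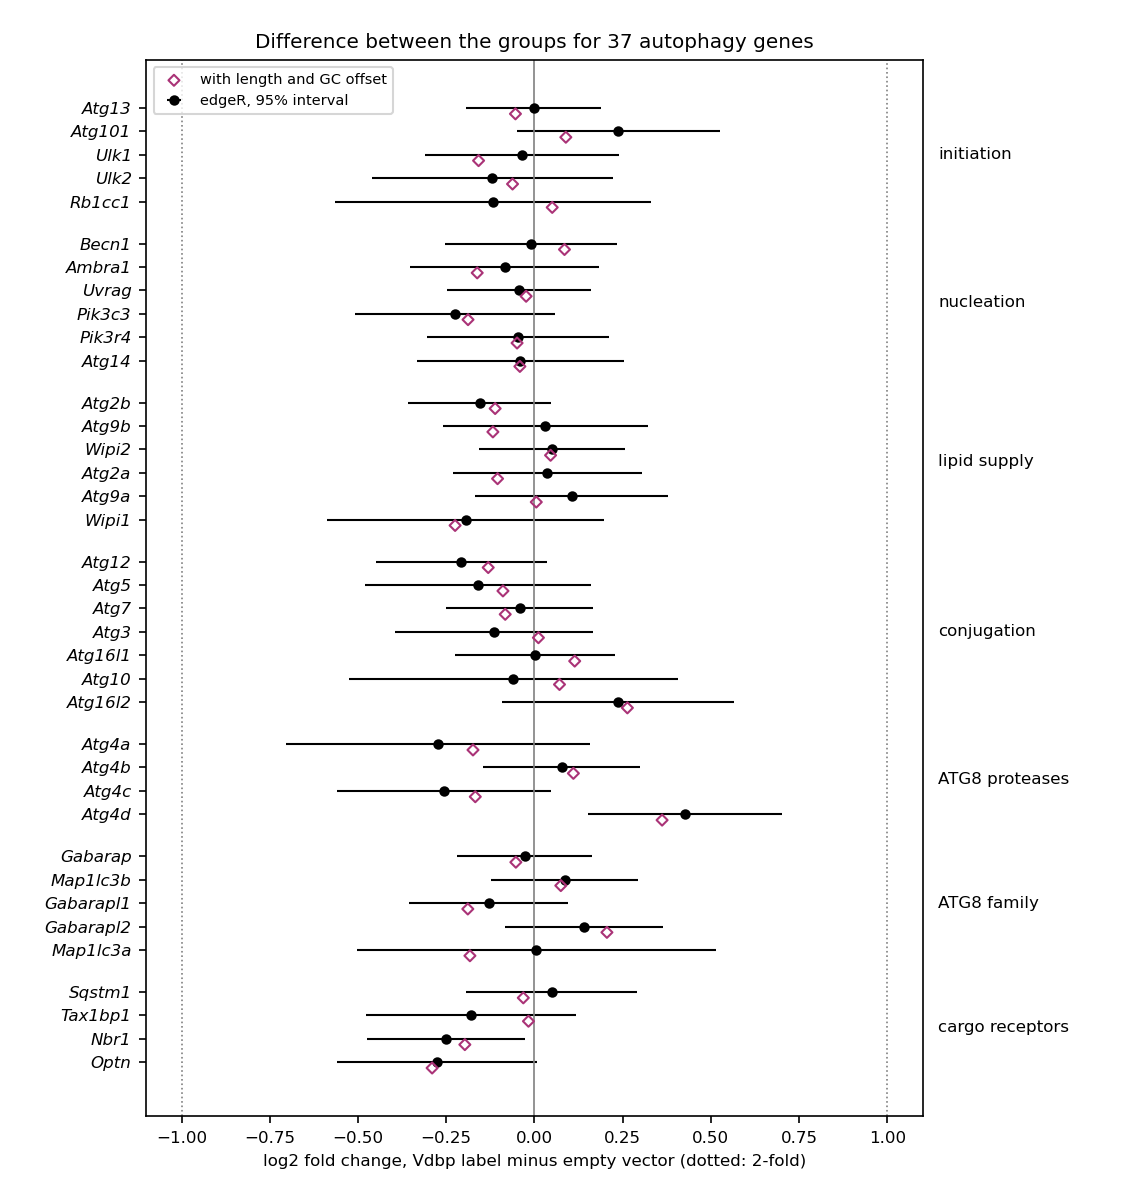
Log2 fold change of each tested member, Vdbp label minus empty vector (horizontal axis). Filled points are from edgeR, and bars are 95% intervals derived from its F test. Open diamonds are from the fit with a gene length and GC offset. Every interval lies inside the dotted 2-fold lines, and only those of Atg4d and Nbr1 leave out 0.

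In the initiation complex Atg13 was the most abundant member per length, and its group means differed by less than either SD. It measured 168, 168 and 165 CPM in empty-vector replicates 1, 2 and 3 and 178, 160.1 and 163 CPM in the libraries labelled Vdbp. The groups overlapped (167 ± 2.14 and 167 ± 9.69 CPM, SD, n = 3 each), and the sign of the difference turned with upper-quartile scaling. Atg101, the partner that stabilises Atg13, averaged 32.3 ± 2.19 and 38.1 ± 6.20 CPM, where 45.3 CPM in Vdbp replicate 1 stood above the 30.4 to 34.7 CPM of the other 5 libraries. The kinases were scarce: Ulk1 and Ulk2 averaged 3.20 and 3.07 FPKM, and the ratio of Ulk1 to Ulk2 ran from 0.866 to 1.52 over the libraries, so neither led. Atg13 stood 11.1 to 12.6 times above Ulk1 per length. Rb1cc1, the large scaffold also called FIP200, was lowest with 1.32 FPKM (1.315) and the most spread of the 5, at 17.0, 23.4 and 20.2 CPM with empty vector and 13.6, 16.9 and 25.5 CPM with the Vdbp label.

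All 6 genes of the lipid kinase complex and its regulators had log2 fold changes below 0, beside 51.3% of all tested genes. None had an unadjusted p under 0.05. Their median was −0.05 with a median SE of 0.12, and 5 of the 6 were below 0 with the length and GC offset. Becn1, the scaffold Beclin 1, measured 82.4, 70.5 and 84.8 CPM with empty vector and 78.9, 86.9 and 70.3 CPM with the Vdbp label. The means were 79.2 ± 7.62 and 78.7 ± 8.34 CPM, a difference well inside the SD, and its sign turned with the length and GC offset. Part of this level is uncertain, because 43.9% of the annotated exon length of Becn1 lies opposite exons of Cntd1 (33 to 51 counts) and the strand setting of the counting is not stated. Pik3c3, the catalytic lipid kinase, averaged 41.1 ± 5.45 and 35.2 ± 3.50 CPM (log2 fold change −0.23, adjusted p = 0.781, edgeR). Its partner Pik3r4 averaged 43.8 ± 4.82 and 42.4 ± 3.23 CPM. The subunits that send this kinase to different membranes were unequal. Uvrag, which acts on endosomes and late steps, stood 2.74 to 3.51 times above Atg14, which directs it to new autophagosomes, per gene length of the table in every library. With the lengths of annotated principal transcripts, an alternative chosen after seeing the data, it stood 4.88 times above. Ambra1, a regulator of Beclin 1 and ULK1, averaged 62.1 ± 3.40 and 58.6 ± 9.45 CPM. It was at 69.3 CPM in Vdbp replicate 1 and 55.2 and 51.3 CPM in replicates 2 and 3, both below all empty-vector libraries.

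Among the genes of lipid supply and early membranes, Atg2b, a lipid transfer protein, had the highest level per length of the table (8.97 FPKM), while with principal transcript lengths Wipi2 (43.5 FPKM) stood above Atg2b (16.1 FPKM). It measured 131, 132 and 121 CPM with empty vector and 114, 107 and 123 CPM with the Vdbp label. Vdbp replicate 3 overlapped the empty-vector libraries (128 ± 5.85 and 115 ± 8.13 CPM, log2 fold change −0.15, adjusted p = 0.781, edgeR). Its relative Atg2a averaged 60.4 ± 4.35 and 62.0 ± 9.47 CPM. The scramblase genes Atg9a (31.5 ± 1.35 and 33.9 ± 4.75 CPM) and Atg9b (32.9 ± 2.26 and 33.6 ± 5.40 CPM) were both present, although ATG9B is known as the isoform of few tissues. Exons of Nos3 on the opposite strand cover 7.45% of the exon length of Atg9b, and Nos3 had 5 to 23 counts per library. Larger shares lie opposite exons of another gene in Gabarapl1 (28.3%), Uvrag (17.6%) and Sqstm1 (17.3%). In Atg9a 31.8% is shared with a gene on the same strand, Gm29253. The effect of these overlaps on levels and ratios was not tested. Wipi2, the phosphoinositide reader that recruits ATG16L1, stood 5.89 to 8.44 times above Wipi1 per length of the table and 17.4 times with principal transcript lengths. They averaged 83.8 ± 1.76 and 86.8 ± 6.92 CPM for Wipi2, and 5.48 ± 0.687 and 4.78 ± 0.436 CPM for Wipi1.

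In the conjugation systems Atg12, the ubiquitin-like protein joined to ATG5, lay lower in every library labelled Vdbp. It measured 55.6, 59.7 and 58.2 CPM with empty vector and 43.7, 53.4 and 53.2 CPM with the Vdbp label. The groups did not overlap, but the gap between the nearest libraries was 55.6 against 53.4 CPM, and Vdbp replicate 1 stood apart. The means were 57.8 ± 2.07 and 50.1 ± 5.54 CPM (log2 fold change −0.21, SE 0.11, adjusted p = 0.781, edgeR). The log2 fold change was −0.11 without Vdbp replicate 1 and −0.10 without both end libraries. Atg5, its partner, averaged 45.7 ± 5.42 and 40.9 ± 7.54 CPM, the activating enzyme Atg7 99.3 ± 1.94 and 96.5 ± 8.50 CPM, and the conjugating enzyme Atg3 40.2 ± 3.997 and 37.1 ± 4.77 CPM. All overlapped between the groups, as did Atg10, the conjugating enzyme for ATG12 (7.06 ± 2.15 and 6.77 ± 0.817 CPM). Atg16l1, which targets the ATG12 and ATG5 conjugate to membranes, averaged 47.5 ± 0.914 and 47.6 ± 3.54 CPM and stood 2.67 to 3.74 times above its relative Atg16l2 per length of the table (7.44 times with principal transcript lengths). Atg16l2 averaged 12.1 ± 1.05 and 14.3 ± 2.35 CPM, with its highest level, 16.9 CPM, in Vdbp replicate 1.

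The ATG4 proteases, which trim ATG8 proteins before conjugation and free them from membranes, held the member with the largest difference. Atg4d (ENSMUSG00000002820, chromosome 9, 21265293 to 21277772, plus strand, GRCm38 coordinates of the table) measured 31.8, 27.9 and 31.5 CPM with empty vector and 47.1, 39.3 and 36.2 CPM with the Vdbp label. Every library labelled Vdbp lay above every empty-vector library, and Vdbp replicate 1 was the highest. The means were 30.4 ± 2.16 and 40.8 ± 5.65 CPM (SD, n = 3 each). The log2 fold change was 0.43 (SE 0.13, 95% interval 0.15 to 0.70, adjusted p = 0.781, edgeR). The unadjusted p was under 0.05 in all 21 fits made, which draw on the same 6 libraries and are not independent of each other. The log2 fold change fell to 0.25 without empty-vector replicate 2 and Vdbp replicate 1. Exons of Kri1 on the opposite strand cover 19.3% of the exon length of Atg4d, and Kri1 measured 30.2, 22.5 and 29.6 CPM with empty vector and 34.1, 27.4 and 26.2 CPM in the libraries labelled Vdbp. The log2 fold change of Kri1 was 0.09 (adjusted p = 0.851, edgeR). Whether shared reads add to the Atg4d difference was not tested.

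The groups overlapped for each of the other 3 proteases. Atg4a was the highest of the 4 per length of the table (8.36 FPKM, Atg4b 6.09), but not with principal transcript lengths (10.2 FPKM, Atg4b 12.1). It measured 23.4, 29.6 and 20.4 CPM with empty vector and 14.3, 21.0 and 25.5 CPM with the Vdbp label. Its groups overlapped, and its log2 fold change of −0.27 (SE 0.20) depended on single libraries. It was −0.47 without Vdbp replicate 3, −0.11 without empty-vector replicate 2, −0.07 without Vdbp replicate 1 and 0.08 without both of the latter. Atg4b, the protease known to act most broadly on ATG8 proteins, averaged 49.3 ± 2.41 and 52.0 ± 2.71 CPM, and Atg4c 21.0 ± 2.81 and 17.5 ± 1.93 CPM.

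The ATG8 genes themselves were dominated by Gabarap. It measured 252, 243 and 233 CPM with empty vector and 247, 229 and 238 CPM with the Vdbp label, which overlap (243 ± 9.37 and 238 ± 8.97 CPM, log2 fold change −0.03, SE 0.09). Map1lc3b, the LC3 gene whose lipidated protein is the usual marker of autophagosomes, averaged 137 ± 7.56 and 145 ± 12.05 CPM, and Map1lc3a 6.26 ± 1.55 and 6.29 ± 1.70 CPM. Per length of the table, Map1lc3b (18.7 FPKM), Gabarapl1 (17.7 FPKM) and Gabarapl2 (17.6 FPKM) did not differ beyond their spread. That order depends on the length used, because the table gives Map1lc3b 7517 bases and its annotated principal transcript has 2532. With the lengths of principal transcripts Gabarap remained highest (178 FPKM), Map1lc3b reached 55.6 FPKM, and Gabarapl2 and Gabarapl1 were at 24.5 and 19.6 FPKM.

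Gabarapl1 and Gabarapl2, close relatives of Gabarap, lay on opposite sides of 0 and did not overlap between the groups. Gabarapl1 (chromosome 6, 129533160 to 129542346, plus strand) measured 36.8, 36.4 and 39.0 CPM with empty vector and 34.3, 34.9 and 33.3 CPM in the libraries labelled Vdbp (−0.13 on the log2 scale, SE 0.10, adjusted p = 0.784, edgeR). Gabarapl2 (chromosome 8, 111940703 to 111953612, plus strand) measured 38.8, 37.2 and 41.5 CPM and then 43.8, 42.7 and 43.0 CPM (0.14 on the log2 scale, SE 0.10, adjusted p = 0.781, edgeR), and its difference was 0.09 without both end libraries. Neither difference passed the test.

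The cargo receptors were led by Sqstm1, which carries ubiquitinated cargo to ATG8 proteins and is itself degraded with it. It measured 525, 512 and 576 CPM with empty vector and 629, 559 and 480.1 CPM with the Vdbp label. The libraries labelled Vdbp held both the highest and the lowest value, and the means (537 ± 33.8 and 556 ± 74.5 CPM) differed by less than either SD. The sign turned without Vdbp replicate 1 (log2 fold change −0.045) and with the length and GC offset (−0.03). Sqstm1 stood 8.76 to 17.5 times above Tax1bp1 and 9.98 to 17.1 times above Nbr1 per length of the table, and 6.21 and 13.9 times with principal transcript lengths.

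Nbr1 and Optn were lower in every library labelled Vdbp. Nbr1, a receptor that works with SQSTM1 on ubiquitinated cargo (ENSMUSG00000017119, chromosome 11, 101552149 to 101581951, plus strand), measured 103, 105 and 93.6 CPM with empty vector and 75.3, 90.6 and 87.8 CPM with the Vdbp label. The nearest libraries of the groups were 93.6 and 90.6 CPM. The means were 100.6 ± 6.15 and 84.6 ± 8.14 CPM (log2 fold change −0.25, SE 0.10, 95% interval −0.47 to −0.03, adjusted p = 0.781, edgeR). The unadjusted p was over 0.05 without empty-vector replicate 1 (0.108) or 2 (0.101), without Vdbp replicate 1 (0.0673), and without both libraries at the ends of the first component (0.0993), where the log2 fold change was −0.14. Optn, optineurin, a receptor for damaged mitochondria and bacteria, measured 16.4, 14.9 and 13.5 CPM with empty vector and 12.4, 12.5 and 11.9 CPM with the Vdbp label. These do not overlap either (14.9 ± 1.43 and 12.3 ± 0.323 CPM, log2 fold change −0.28, SE 0.13, adjusted p = 0.781, edgeR). Tax1bp1, the remaining receptor, overlapped (151 ± 20.3 and 133 ± 23.4 CPM), with its lowest level, 107 CPM, in Vdbp replicate 1 and its highest, 174 CPM, in empty-vector replicate 2.

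**Figure D3:**
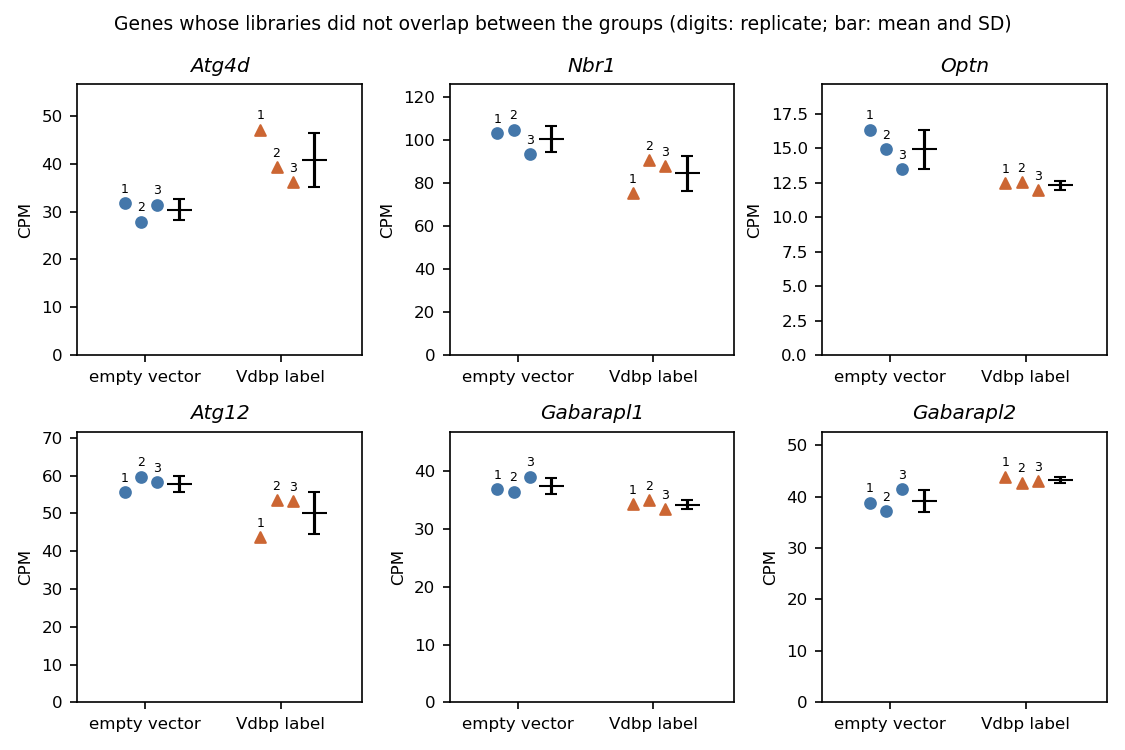
CPM (vertical axis, from 0) of the 6 members whose libraries did not overlap between the groups, with each library's replicate number and the group mean and SD beside the points. Atg4d and Gabarapl2 were higher with the Vdbp label and the other 4 lower, and in Atg4d, Nbr1 and Atg12 Vdbp replicate 1 stands farthest from the empty-vector libraries.

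The DNA just before the annotated starts of Atg4d and Nbr1, the members with the smallest p, and of Gabarapl1 and Gabarapl2, the close pair that lay on opposite sides, is shown for comparison. Each run holds the 250 bases upstream of the RefSeq start on GRCm38.p6, plus strand, and the CCAAT box, searched on both strands, stands in capitals, as does any CACGTG. The windows are chr9:21265035-21265284 for Atg4d, chr11:101551857-101552106 for Nbr1, chr6:129532942-129533191 for Gabarapl1 and chr8:111940453-111940702 for Gabarapl2. RefSeq starts and the gene starts given above differ for all but Gabarapl2. The RefSeq start lies 8 bases before the gene start for Atg4d and 42 bases before it for Nbr1. For Gabarapl1 it lies 32 bases after, so the last 32 bases of that run fall inside the gene as given above.
Atg4d: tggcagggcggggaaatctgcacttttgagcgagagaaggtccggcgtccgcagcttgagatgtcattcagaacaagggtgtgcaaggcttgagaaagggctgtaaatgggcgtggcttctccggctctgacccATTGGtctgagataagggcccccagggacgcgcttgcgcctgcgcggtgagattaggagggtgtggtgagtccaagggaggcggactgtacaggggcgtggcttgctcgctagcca
Nbr1: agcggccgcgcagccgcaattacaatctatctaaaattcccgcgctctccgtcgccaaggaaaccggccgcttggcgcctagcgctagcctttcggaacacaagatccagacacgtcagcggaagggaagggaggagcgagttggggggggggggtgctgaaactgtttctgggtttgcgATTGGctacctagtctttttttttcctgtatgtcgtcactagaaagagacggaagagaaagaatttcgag
Gabarapl1: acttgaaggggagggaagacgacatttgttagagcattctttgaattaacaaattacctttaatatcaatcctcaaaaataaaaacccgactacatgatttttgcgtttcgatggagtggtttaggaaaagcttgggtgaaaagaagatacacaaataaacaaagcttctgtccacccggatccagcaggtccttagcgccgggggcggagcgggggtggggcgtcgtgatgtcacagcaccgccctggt
Gabarapl2: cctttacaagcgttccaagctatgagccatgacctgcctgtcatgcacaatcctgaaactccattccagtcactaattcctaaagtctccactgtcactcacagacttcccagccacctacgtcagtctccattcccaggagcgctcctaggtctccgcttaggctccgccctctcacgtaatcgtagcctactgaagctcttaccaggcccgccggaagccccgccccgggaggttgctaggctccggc

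Atg4d and Nbr1 each held 1 CCAAT box in this window and the GABARAP relatives held none, while none of the 4 held CACGTG. This hexamer is the core of the element bound by TFEB, a transcription factor of lysosome and autophagy genes, and forms the middle of its longer palindromic form, the CLEAR element. Both strands were searched. A member counted if any of its windows held the motif, while the background counts single windows. The shares below are therefore not directly comparable. Of 31 members matched by symbol in RefSeq's promoter table, CACGTG was in 3 (Atg3, Atg5 and Atg7), or 9.68%, against 6.02% of all 32851 windows of this length, and the CLEAR element was in none, against 0.240%. CCAAT was in 9 members, or 29.0%, against 33.8% of all windows. TGACNNNGC, the core of the antioxidant response element, was in 3 (Atg13, Tax1bp1 and Ulk2), or 9.68%, against 10.2%. A match is a description of these letters and not a measured binding site.

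Levels of the members moved between libraries with the GC content of their transcripts. Across the 37 members, which share the same 6 libraries, Spearman's rho between GC content and a library's deviation from the gene mean was 0.82 in Vdbp replicate 1 and −0.66 in empty-vector replicate 2, and between −0.51 and 0.14 in the other 4. The 12 members lowest in GC (39.1% to 47.0%), among them Rb1cc1, Tax1bp1, Atg3, Atg4a, Atg5 and Atg12, had a median deviation of 0.27 log2 units in empty-vector replicate 2 and −0.31 in Vdbp replicate 1. Of these 12, 10 had a log2 fold change below 0, with a median of −0.12. In the 12 members highest in GC (52.7% to 63.1%), such as Ulk1, Atg101, Atg9b and Atg2a, Vdbp replicate 1 deviated by 0.22, and 5 of 12 had a log2 fold change below 0. The log2 fold change followed GC content with a rho of 0.51 across the members, as it did across all tested genes (0.51).

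**Figure D4:**
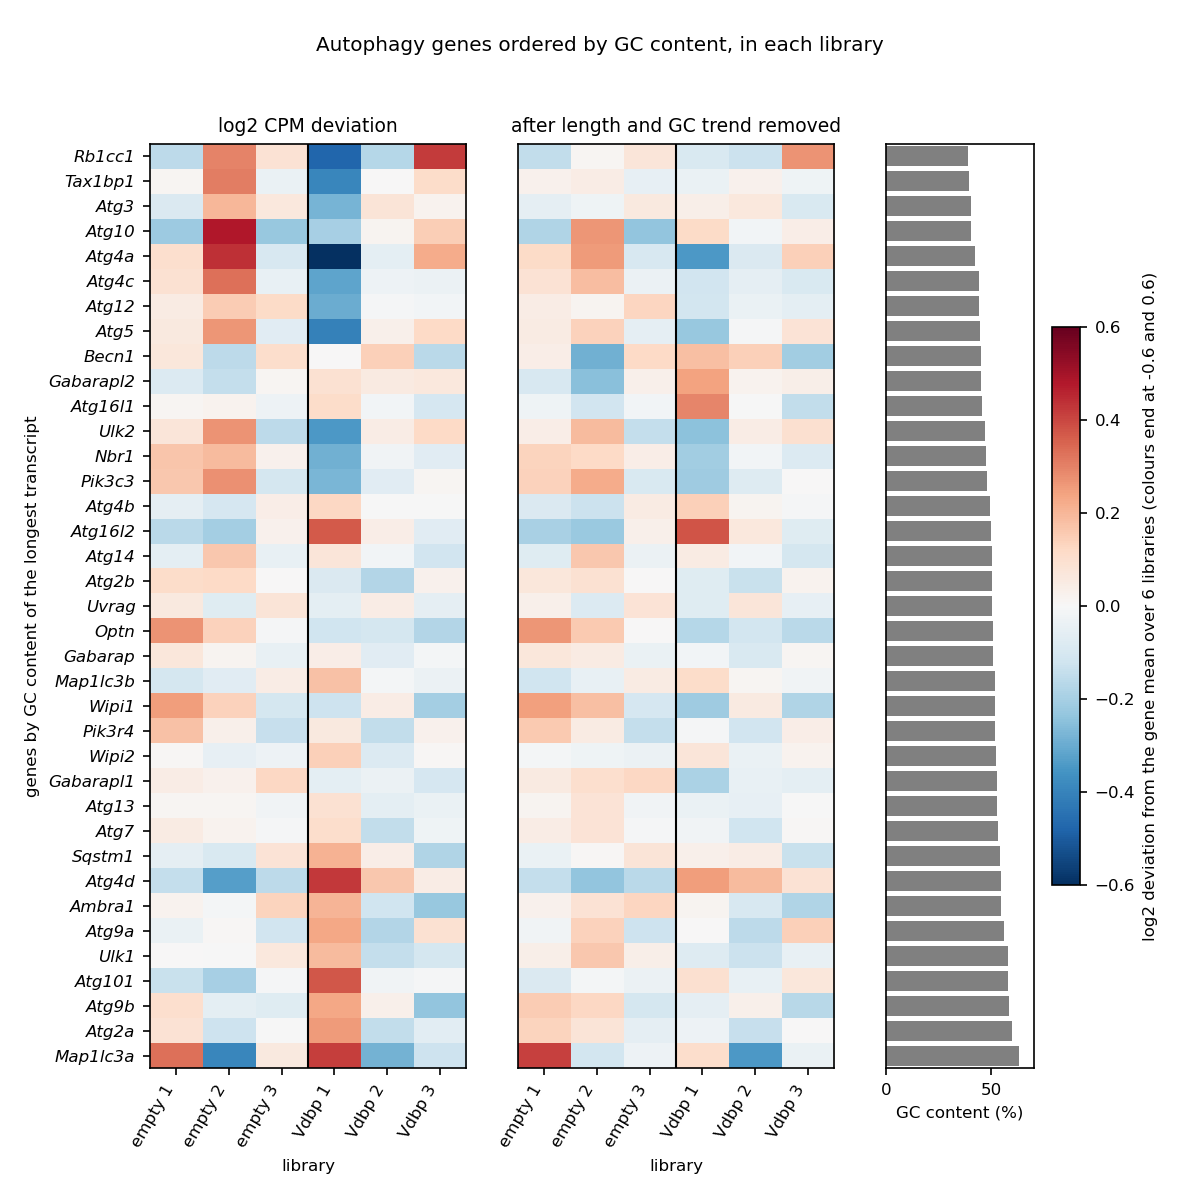
Deviation of each member's log2 CPM from its mean over the 6 libraries (colour), with members ordered by the GC content of their longest transcript (bars, percent). Vdbp replicate 1 runs from blue at low GC to red at high GC and empty-vector replicate 2 the other way in the left panel, and both gradients are weaker in the middle panel, after the length and GC trend was removed.

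With length and GC content of genes as an offset, fitted per library as a smooth curve, rho across the members became −0.16 and still 0 members passed over all genes. The smallest member adjusted p in that fit was 0.410, that of Atg4d, with 2 genes called in all (0.0156% of those tested). Then 6 members had an unadjusted p under 0.05, beside 8.98% of all tested genes. Higher among them were Atg4d (log2 fold change 0.36) and Gabarapl2 (0.21, adjusted p = 0.546, edgeR), beside 4.71% of all tested genes. Lower were Nbr1 (−0.20), Optn (−0.29), Gabarapl1 (−0.19) and Ambra1 (−0.16), with adjusted p from 0.502 to 0.546 (edgeR), beside 4.27% of all tested genes. The difference of Tax1bp1 went from −0.18 to −0.02 and that of Atg12 from −0.21 to −0.13. The median over members was −0.05, against 0.00 for all tested genes.

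Genes around this machinery, taken from 4 further lists, were also without a call: 0 of 53 tested genes passed in edgeR, 25 had a log2 fold change above 0 and 28 below it, and the median was −0.03. An unadjusted p under 0.05 was found for 5 of 53, beside 5.35% of all tested genes, with 1 higher (2.81% of all tested genes) and 4 lower (2.54%). The higher gene was Prkab1, a regulatory subunit of the energy sensor AMPK (36.0 ± 0.627 and 43.0 ± 2.97 CPM). The lower ones were Sh3glb1, a membrane-curving partner of Beclin 1 (258 ± 30.1 and 211 ± 24.99 CPM), Bnip3l, a mitophagy receptor (86.2 ± 7.58 and 72.1 ± 7.13 CPM), Ncoa4, the receptor for ferritin (86.3 ± 8.54 and 71.6 ± 10.3 CPM), and Mitf, a relative of TFEB (59.3 ± 6.61 and 48.8 ± 5.09 CPM). All 5 had an unadjusted p between 0.0272 and 0.0495 and an adjusted p of 0.781 (edgeR). The groups overlapped for Sh3glb1 and Ncoa4. Over the 53 tested genes, 1 was higher without overlap (Prkab1), beside 5.26% of all tested genes. Without overlap 5 were lower (Bnip3l, Mitf, Tsc1, Epg5 and Vps39), beside 5.61%. All 5 log2 fold changes were smaller in size with the length and GC offset, but each kept an unadjusted p under 0.05 (0.0164 to 0.0461, edgeR). They went from 0.26 to 0.16 for Prkab1, −0.29 to −0.17 for Sh3glb1 and −0.26 to −0.14 for Bnip3l. Those of Ncoa4 and Mitf went from −0.27 and −0.28 to −0.17 each. Tsc1, of the upstream regulators, joined them with the offset (−0.21 to −0.20, unadjusted p = 0.0154, edgeR). In that fit 1 gene of these lists was higher at that level (4.71% of all tested genes) and 5 lower (4.27%). By list and without the offset, the early factors had 8 of 8 tested and 1 lower, and the further receptors 14 of 15 tested and 2 lower. The upstream regulators had 17 of 17 tested with 1 higher and 1 lower. The fusion factors had 14 of 14 tested and no gene at that level.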

How the data were processed

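The deposited counts are unnormalised whole numbers per Ensembl gene. The authors' FPKM values equalled the counts divided by the table's gene length and 1 constant per library (largest relative gap 1.33e-13). The submitters' processing notes list HISAT2 and StringTie, with counting tool, build and annotation not given in the sources used here. Starts and ends equalled those of GENCODE M21 (GRCm38) for 98.3% of shared genes.

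Counts were analysed with edgeR 4.0.16 in R 4.3.3: filterByExpr (minimum count 10, total 15, proportion 0.7), TMM, quasi-likelihood F test on group, two-sided, Benjamini-Hochberg over 12844 genes. CPM are at TMM-adjusted library sizes. A count of 0 allows up to 3 counts, a limit for counting error alone. The offset used mgcv 1.9.3 and the GC content of the longest transcript. The edgeR procedure was tested on simulated counts that held no GC trend. That run does not show how it performs where levels move with GC content, as they did here. Alternatives included DESeq2 1.42.0, limma 3.58.1 (voom, and log2 FPKM with pseudocounts of 1 and 0.1) and leaving out libraries. Another marker list is not reported here. Members, role lists and pathway lists were chosen with earlier results of these data known. Values in every library were given for members without overlap, with an unadjusted p under 0.05, or highest per length in a role, and further values were chosen after they were seen.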

Additional observations from a re-analysis of the deposited data

How the results depend on the processing

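No member passed the adjusted threshold in any of the 20 alternatives. The median log2 fold change over members stayed between −0.06 and −0.03. The count of members at an unadjusted p under 0.05 was 6 with the length and GC offset (8.98% of all genes), 5 with that offset and the replicate block (6.87% of all genes), and 1 to 5 when a library was left out. The count of all genes called, 0 in the reported fit, was 4 with DESeq2, 89 without a filter on low counts, 2 with the offset, 4 with limma on unfiltered log2(FPKM + 1), 2 without empty-vector replicate 2 and Vdbp replicate 1 (the end libraries), and 0 to 22 when 1 library was left out (22 without empty-vector replicate 3). Among the 12 members tested this way, signs turned for Atg13 with upper-quartile scaling (0.0072) and without a filter (0.0031), Becn1 with the offset (0.085) and with offset and block (0.086), Sqstm1 with the offset (−0.031), with offset and block (−0.033) and without both end libraries (−0.085), for Atg4a without both (0.080), and for some left-out libraries. With 1 library left out, log2 fold changes ranged from −0.047 to 0.029 for Atg13, −0.086 to 0.067 for Becn1, −0.055 to 0.00042 for Gabarap and −0.045 to 0.15 for Sqstm1. The cause of these shifts was not tested. With the replicate number as a block, 0 genes passed, and 2 members and 5.41% of all genes had an unadjusted p under 0.05. Same-numbered libraries deviated together with correlations of 0.14, 0.034 and −0.27, so the numbers were not treated as pairs.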

Other observations

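The ratio of Gabarapl2 to Gabarapl1 per gene length came to 0.912, 0.884 and 0.921 in the empty-vector libraries (replicates 1 to 3) against 1.11, 1.06 and 1.12 with the Vdbp label. Its groups did not overlap. With 3 against 3 libraries this alone fixes the two-sided p of the exact permutation test at 0.1, its smallest value, so the test adds nothing. It was singled out after the values were seen, and 2 of the 18 ratios computed between members of a family or step did not overlap, the other being Atg4b to Atg4d. Over all 666 pairs of tested members, 12.5% of ratios did not overlap. The GC contents of the longest transcripts were 45.3% for Gabarapl2 and 52.7% for Gabarapl1. Over all tested genes the log2 fold change rose with GC content (rho 0.51). Gabarapl2, the higher of the pair with the Vdbp label, was the one lower in GC. Taking out such a trend therefore itself tends to enlarge both differences. Both were larger with the length and GC offset than without it, which is no separate support for either.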
